A study of Saccharomyces cerevisiae with 12 samples.

Results

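The proteasome subunit genes of budding yeast were followed across 2 strains and 2 growth temperatures. The genes were taken by name: every gene whose symbol is PRE, PUP, RPN or RPT followed by digits alone, and SCL1, without RPN4, a transcription factor that is described separately. This gave 33 of the 5449 genes measured, each with 1 probe set. They were the 14 subunits of the core particle, 18 subunits of the regulatory particle and RPN14, a chaperone that assists assembly of the regulatory particle without staying in it.

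The groups were CEN.PK113-7D, a laboratory strain that is haploid and of mating type a, and EC1118, a diploid wine yeast used in industry, each grown at 15 °C and at 30 °C. Each of the 4 groups held 3 biological replicates with 1 Affymetrix yeast array per culture. All cultures were anaerobic, nitrogen-limited chemostats in minimal medium with anaerobic growth factors, held at a dilution rate of 0.05 per h, so growth rate was the same in every group. Each strain is represented by a single isolate, and the strains differ in ploidy and mating type as well as in origin. The values are deposited linear intensities, and the number of arrays limits their precision. An array measures the RNA of a whole culture, so a change in RNA per cell and a change in the share of cells that hold the RNA cannot be told apart.

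The proteasome degrades proteins that carry a chain of ubiquitin. Its barrel-shaped core particle is built of outer rings of alpha subunits, which form the gate, and inner rings of beta subunits, some of which cut peptide bonds. The regulatory particle caps the barrel: its base holds the ATPases that unfold the substrate and pull it in, and its lid removes ubiquitin. In yeast the Rpn4 transcription factor activates most proteasome genes, and the Rpn4 protein is itself rapidly degraded by the proteasome.

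The medians of all arrays ran from 329 to 371 and were higher at 30 °C than at 15 °C in both strains, so that the scale of the arrays moved with temperature. The median log2 change of all genes from 30 °C to 15 °C was -0.11 in CEN.PK113-7D and -0.04 in EC1118. Proteasome changes were of similar size, so counts by temperature below are given as deposited and after centring every array on its median. The labelled strains were checked by mating type: 6 of 6 genes specific to a cells and 7 of 7 haploid-specific genes were lower in EC1118 at both temperatures (median log2 difference of the a-specific genes -4.73 at 15 °C and -5.63 at 30 °C). The array least like its own group was CEN.PK113-7D replicate 3 at 15 °C, whose log2 values had a mean r of 0.978 with the other two, across genes that are not independent. The same array was the highest of all 12 for each of the 4 genes specific to alpha cells, which a strain of mating type a should not use. MF(ALPHA)1, which encodes a mating pheromone of alpha cells, read 505.3, 776.2 and 2364 in CEN.PK113-7D at 15 °C and 143.5, 135.6 and 232.9 at 30 °C. Without replicate 3 at 15 °C, 16 proteasome genes fell in the cold in CEN.PK113-7D (18 with it) and 15 were lower in EC1118 at 15 °C (15 with it), and the part of these alpha-specific transcripts in the results was not tested.

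The largest difference in proteasome transcripts lay between the strains at 30 °C. All 33 genes were lower in EC1118 than in CEN.PK113-7D, and all 33 passed the threshold (limma, adjusted p under 0.05), where 20.4% of all genes were called lower. No proteasome gene was called higher, against 21.0% of all genes, and at an unadjusted p under 0.05 the count was also 0, against 25.9%. The 3 EC1118 arrays lay below the 3 CEN.PK113-7D arrays for all 33 genes, which held for 26.5% of genes in general. The median log2 difference was -0.60 for the core particle and -0.54 for the regulatory particle, against 0.01 for all genes. With centred arrays 32 genes were lower, where 21.0% of all genes were, and RPN13 was the exception. How well each probe set matches the EC1118 genome was not tested.

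**Figure D1:**
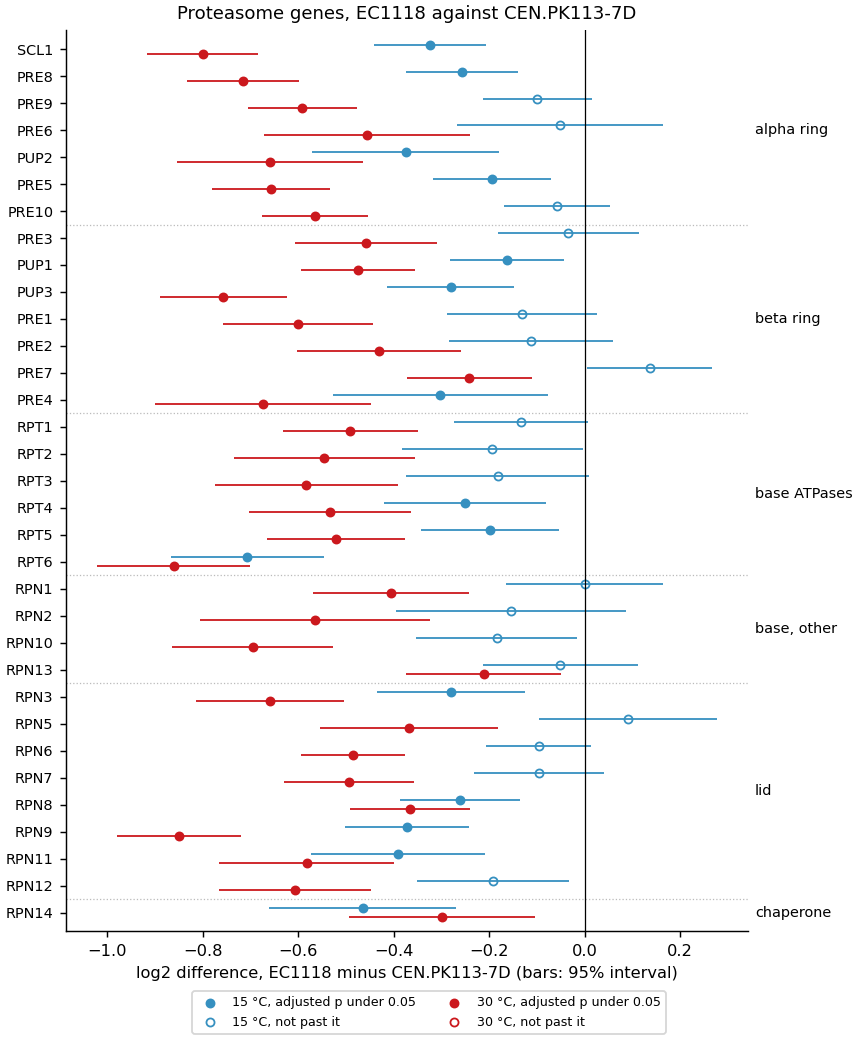
The log2 difference between EC1118 and CEN.PK113-7D for each of the 33 genes, at 15 °C (blue) and 30 °C (red), with 95% intervals from the limma fit and filled points for adjusted p under 0.05. At 30 °C every point lies between -0.86 and -0.21, and at 15 °C every point but that of RPN14 lies nearer 0 or above it, with RPT6 the lowest at -0.71.

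Within the core particle at 30 °C the alpha ring stood at a median of -0.66 and the beta ring at -0.47. SCL1, an alpha subunit, read 2077, 2225 and 2069 in CEN.PK113-7D and 1235, 1225 and 1196 in EC1118. It was 1.74-fold lower in EC1118 (log2 difference -0.80 ± 0.05 SE, adjusted p = 1.34e-06). PUP3, a beta subunit without catalytic activity, read 1990, 1882 and 2011 against 1111, 1208 and 1163 and was 1.69-fold lower (adjusted p = 5.33e-06). Neither gene had an EC1118 array near the CEN.PK113-7D range.

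The 3 catalytic subunits differed by less. PRE2, which carries the chymotrypsin-like site, read 2063, 1910 and 2094 in CEN.PK113-7D and 1470, 1517 and 1511 in EC1118, a difference of 1.35-fold. PUP1, which carries the trypsin-like site, read 1695, 1763 and 1697 against 1172, 1259 and 1281, or 1.39-fold. PRE3, with the caspase-like site, read 1850, 1635 and 1630 against 1238, 1287 and 1194, or 1.37-fold. All of these groups were apart at 30 °C (adjusted p = 0.00144, 7.35e-05 and 0.00038). PRE7, another noncatalytic beta subunit, had the smallest core difference, at -0.24 ± 0.06, with 1801, 1682 and 1713 in CEN.PK113-7D and 1500, 1521 and 1376 in EC1118.

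In the regulatory particle at 30 °C the base ATPases had a median of -0.54, the other base subunits -0.49 and the lid -0.54. RPT6, one of the ATPases, read 1703, 1539 and 1606 in CEN.PK113-7D and 909.9, 895.1 and 861.8 in EC1118, 1.82-fold lower and the largest difference among the 33 genes (adjusted p = 8.47e-06). RPN9, a structural lid subunit, read 1169, 1155 and 1180 against 690.4, 627.7 and 628.2 and was 1.80-fold lower (adjusted p = 1.93e-06). Both genes thus showed tight replicates and wide gaps. RPN11, the lid enzyme that takes ubiquitin off the substrate, read 945.1, 868.6 and 793.8 against 595.1, 584.4 and 557.6, a log2 difference of -0.58 ± 0.08. RPN10 and RPN13 are ubiquitin receptors of the base, and they differed in size: RPN10 was 1.62-fold lower in EC1118 (log2 difference -0.70 ± 0.08) and RPN13 1.16-fold lower (-0.21 ± 0.07, adjusted p = 0.0399, lost when any of 7 arrays was left out). RPN13 read 1021, 936.9 and 882.2 in CEN.PK113-7D and 857.2, 794.7 and 797.9 in EC1118. The chaperone gene RPN14 read 179.3, 169.8 and 190.9 against 146.5, 138 and 154.6 (1.23-fold lower, adjusted p = 0.0203), a call lost without CEN.PK113-7D replicate 3 or EC1118 replicate 2 at 30 °C.

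At 15 °C the strains were closer. Of the 33 genes, 15 were called lower in EC1118 and 0 higher, where 14.1% of all genes were called lower and 19.0% higher. At an unadjusted limma p under 0.05, 18 were lower and 1 was higher, against 17.5% and 25.8% of all genes. The higher one was PRE7, named after its value was seen. The lower calls were 7 of 14 in the core particle, 7 of 18 in the regulatory particle and RPN14. The median difference was -0.15 for the core and -0.19 for the regulatory particle, against 0.05 for all genes. With centred arrays 16 were lower, where 16.0% of all genes were. The count of 15 was 9 when only the 15 °C arrays were fitted, and 10 without CEN.PK113-7D replicate 1 at 15 °C. The share of all genes called in these smaller fits was not counted.

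RPT6 was again the most different at 15 °C: it read 1569, 1526 and 1430 in CEN.PK113-7D and 972.2, 965.8 and 838.9 in EC1118, 1.63-fold lower (log2 difference -0.71 ± 0.07, adjusted p = 4.71e-05). Its strain difference was therefore nearly as large in the cold as at 30 °C. RPN14 was 1.38-fold lower (adjusted p = 0.00268), with 236.5, 218.3 and 201.1 against 142.1, 168.9 and 164.4. RPN11 was 1.31-fold lower, reading 995.1, 912.3 and 882.8 against 750.8, 727.2 and 650.6. Among the called genes with the smallest differences were PRE5, an alpha subunit (-0.19 ± 0.06), the ATPase RPT5 (-0.20 ± 0.07, adjusted p = 0.0525 with replicate numbers as a block) and PUP1 (-0.16 ± 0.05). These 3 calls were lost when any of 4, 6 and 8 arrays, in that order, was left out. Of the other catalytic subunits, PRE3 measured -0.03 (95% interval -0.18 to 0.11) and PRE2 -0.11, and neither passed the threshold. RPN1, the base subunit that docks ubiquitin shuttles, measured 0.00 (95% interval -0.16 to 0.16).

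The temperature comparison asked what growth in the cold did to proteasome transcripts when growth rate was held fixed. In CEN.PK113-7D 18 of 33 genes fell from 30 °C to 15 °C and 1 rose, where 36.6% of all genes fell and 21.8% rose. The fallers were 5 of 14 core genes and 13 of 18 regulatory particle genes, and the riser was RPN14. The direction of the family in this strain depended on the scaling: with centred arrays 9 genes fell and 1 rose, where 28.9% of all genes fell and 28.9% rose, and with quantile normalization 5 fell and 5 rose. The share of all genes called with quantile normalization was not counted. The fallers with centred arrays were 3 of 14 core genes and 6 of 18 regulatory particle genes, so the particles lay closer together and nearer that share. The core median was -0.11 and the regulatory particle median -0.24, or 0.00 and -0.13 relative to the median of all genes.

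Lid and base scaffold genes, with PRE7 of the core, had the largest falls in CEN.PK113-7D. RPN6, the lid subunit that clamps the regulatory particle to the core, read 1004, 951.4 and 954.2 at 15 °C and 1360, 1369 and 1380 at 30 °C, 1.41-fold lower at 15 °C (adjusted p = 2.17e-05, log2 change -0.50 ± 0.05 SE). RPN3, another lid subunit, read 856, 766.8 and 793.2 against 1125, 1055 and 1133 and was 1.37-fold lower (adjusted p = 0.000333). In both cases the temperatures were well separated, and both calls held with centred arrays. The lid gene RPN5 and the large base scaffolds RPN1 and RPN2 were 1.37-fold, 1.32-fold and 1.33-fold lower. Of the lid genes 7 of 8 fell as deposited and 3 of 8 with centred arrays, where 36.6% and 28.9% of all genes did. The lid gene not called in either, RPN11, measured 0.10 ± 0.08. Of the other base subunits 3 of 4 fell as deposited and 2 with centred arrays.

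Of the ATPases 3 of 6 fell in CEN.PK113-7D, and 1 with centred arrays, where 36.6% and 28.9% of all genes did. RPT1 read 1863, 1704 and 1870 at 15 °C and 2042, 2176 and 2022 at 30 °C, 1.15-fold lower (adjusted p = 0.0209), a call lost without CEN.PK113-7D replicate 2 at either temperature. RPT4 was 1.29-fold lower and RPT5 measured 0.01 ± 0.07. RPT3 was 1.17-fold lower with overlapping groups (limma, adjusted p = 0.0435), a call lost when any of 9 arrays was left out. The ubiquitin receptor RPN10 read 1076, 1125 and 973.3 against 1234, 1169 and 1366 and was 1.19-fold lower (adjusted p = 0.0171), a call lost without CEN.PK113-7D replicate 3 at either temperature. The groups of RPN10 and RPT1 did not overlap, but neither gene passed with centred arrays.

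In the core particle PRE7 fell most in CEN.PK113-7D, with 1225, 1204 and 1301 at 15 °C against 1801, 1682 and 1713 at 30 °C (1.39-fold lower, adjusted p = 8.57e-05). PRE1, PRE4, PRE8 and SCL1 also fell, with log2 changes of -0.31, -0.26, -0.16 and -0.28. PRE8 and PRE4 did not pass with centred arrays, and their calls were lost when any of 3 and 8 arrays was left out. The catalytic subunits PRE3, PUP1 and PRE2 measured -0.05, -0.11 and -0.09 and did not pass the threshold, with 95% intervals for PRE3 from -0.20 to 0.10. RPN14 rose 1.21-fold (log2 change 0.28 ± 0.09, adjusted p = 0.0197), a call lost without CEN.PK113-7D replicate 1 at 15 °C or replicate 2 at 30 °C.

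In EC1118 the calls ran the other way. Of 33 genes 16 rose at 15 °C and 0 fell, where 24.2% of all genes rose and 30.0% fell. At an unadjusted p under 0.05, 19 were higher and 2 were lower, against 27.0% and 32.7% of all genes. The risers were 9 of 14 core genes and 7 of 18 regulatory particle genes, and RPN14 was not called (0.11 ± 0.09). The direction held under both scalings, with 22 genes higher and 0 lower with centred arrays, where 29.8% of all genes rose and 25.6% fell, and 21 higher and 0 lower with quantile normalization. For quantile normalization the share of all genes was not counted. The core median was 0.22 and the regulatory particle median 0.16, or 0.26 and 0.20 relative to all genes.

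**Figure D2:**
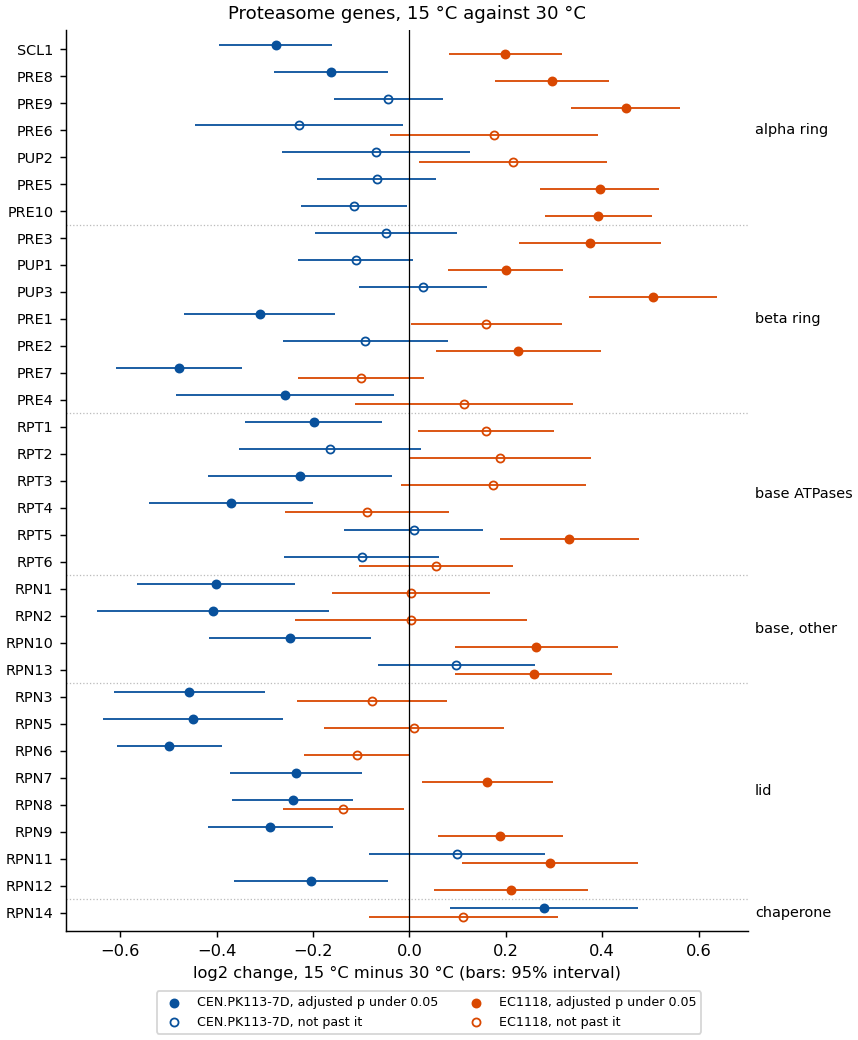
The log2 change from 30 °C to 15 °C for each of the 33 genes in CEN.PK113-7D (blue) and EC1118 (orange), with 95% intervals from the limma fit and filled points for adjusted p under 0.05. Most EC1118 points lie to the right of 0 and most CEN.PK113-7D points to the left, with the largest CEN.PK113-7D falls among lid and base genes and PRE7.

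PUP3 rose most in EC1118, from 1111, 1208 and 1163 at 30 °C to 1600, 1647 and 1694 at 15 °C (1.42-fold, log2 change 0.51 ± 0.06 SE, adjusted p = 8.28e-05). PRE9, the alpha subunit that yeast can live without, rose 1.37-fold, from 916.1, 878.9 and 853 to 1229, 1177 and 1206. PRE5 rose 1.32-fold, from 824.1, 832.9 and 813.3 to 1110, 1081 and 1057. These genes had no overlap between temperatures in EC1118, while in CEN.PK113-7D the values of each overlapped. In that strain PUP3 read 1910, 1980 and 2114 at 15 °C and 1990, 1882 and 2011 at 30 °C.

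All 3 catalytic subunits rose in EC1118. PRE3 reached 1638, 1610 and 1573 at 15 °C (1.30-fold, adjusted p = 0.000948), PUP1 1398, 1427 and 1436 (1.15-fold, adjusted p = 0.0098) and PRE2 1735, 1738 and 1790 (1.17-fold, adjusted p = 0.0298, lost when any of the 6 EC1118 arrays was left out). The 30 °C values of these genes in EC1118, given above, were all lower. The alpha ring had 5 of 7 genes called higher (median 0.30) and the beta ring 4 of 7 (median 0.20), where 24.2% of all genes were. With centred arrays these counts were 7 and 5, where 29.8% of all genes were called higher. PRE7 measured -0.10 ± 0.06 and did not pass.

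In the regulatory particle of EC1118, RPN11 rose 1.22-fold and RPN10 1.20-fold in the cold, RPN10 from 774.9, 737.1 and 813 to 938.4, 944.1 and 906.3. The groups of RPN10 did not overlap (adjusted p = 0.0137), but it no longer passed without EC1118 replicate 2 at 30 °C, nor RPN11 without EC1118 replicate 1 at 15 °C. RPT5 was the ATPase that passed the threshold, at 1.26-fold (adjusted p = 0.00173). RPT1 read 1722, 1626 and 1607 at 15 °C and 1497, 1544 and 1399 at 30 °C, and missed it (adjusted p = 0.056), though it passed with centred arrays. RPN7, a lid subunit, and RPN9 were called with small rises of 0.16 ± 0.06 and 0.19 ± 0.06, lost when any of 9 and 3 arrays was left out. The scaffold genes that fell in CEN.PK113-7D measured close to 0 here: RPN1 0.00 (95% interval -0.16 to 0.17), RPN2 0.00 and RPN5 0.01. RPN6 measured -0.11 ± 0.05 with the cold arrays at 906.2, 905.6 and 908.2 and the 30 °C arrays at 941.1, 984.3 and 1010, and it did not pass (adjusted p = 0.0831).

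**Figure D3:**
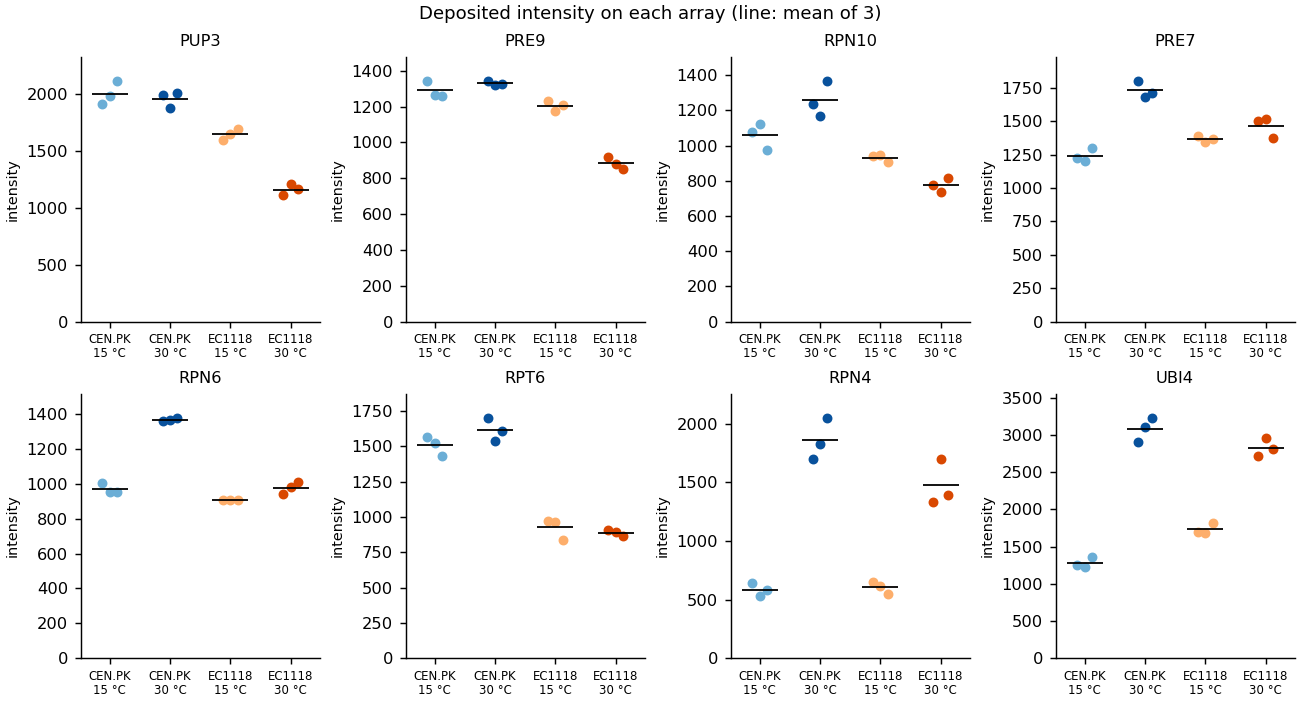
Deposited linear intensity on every array (points) and the mean of 3 (line) for 6 proteasome genes, RPN4 and UBI4 in the 4 groups. PUP3 and PRE9 are lowest in EC1118 at 30 °C, RPN6 and PRE7 are highest in CEN.PK113-7D at 30 °C, RPT6 separates the strains at both temperatures, and RPN4 and UBI4 separate the temperatures in both strains.

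The difference between the temperature effects was tested directly. The effect was more positive in EC1118 for 20 of 33 genes and more negative for 0, where 8.68% and 4.37% of all genes were called. At an unadjusted p under 0.05, 28 were more positive and 0 more negative, against 17.6% and 10.6% of all genes. Of the core genes 10 of 14 were called, and of the regulatory particle genes 10 of 18, with medians of 0.44 and 0.38 against 0.04 for all genes. With centred arrays 16 were called, where 7.74% of all genes were, and with quantile normalization 9, for which the share of all genes was not counted. All 32 subunit genes had a positive difference, whether or not they were called, and RPN14 measured -0.17 ± 0.12.

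RPN10 had the largest difference, 0.51 ± 0.11 SE (adjusted p = 0.0128): its log2 change in the cold was -0.25 in CEN.PK113-7D and 0.26 in EC1118. PRE10, an alpha subunit, differed by 0.51 ± 0.07 (adjusted p = 0.00203). It read 1683, 1716 and 1705 at 15 °C and 1804, 1821 and 1902 at 30 °C in CEN.PK113-7D, and 1572, 1657 and 1675 against 1240, 1223 and 1273 in EC1118. The cold values of the strains were thus close and the 30 °C values far apart. PRE9 differed by 0.49 ± 0.07 (adjusted p = 0.00273). The smallest called differences were 0.31 ± 0.08 for PUP1, 0.32 ± 0.09 for RPT5 and 0.36 ± 0.09 for RPT1 (adjusted p = 0.0241, 0.045 and 0.0276), and they were lost when any of 5, 9 and 5 arrays was left out. Larger differences also lost their call: RPN3, RPN1, RPN12 and RPN5 when any of 7, 8, 5 and 7 arrays was left out. The other called proteasome genes passed with each array left out. RPT6, RPN8, RPN11 and RPN13 were among those not called, at 0.15, 0.10, 0.19 and 0.16. For RPN8, the inactive partner of Rpn11, the 95% interval ran from -0.07 to 0.28.

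Placed in order, the 4 group means of 22 of the 33 genes ran from CEN.PK113-7D at 30 °C through CEN.PK113-7D and EC1118 at 15 °C to EC1118 at 30 °C. This order held for 12 of 14 core genes, 10 of 18 regulatory particle genes and 5.21% of all genes. A cold value below the 30 °C value in CEN.PK113-7D together with the reverse in EC1118, regardless of calls, was found in 23 of 33 genes, against 12.9% of all genes. Both counts are as deposited and were not made with centred arrays. With centred arrays the median change in CEN.PK113-7D was 0.00 for the core and -0.12 for the regulatory particle. The sign of core genes in that strain thus depended on the scaling. The exceptions to the order had names from both particles. PUP3, RPT5, RPN11 and RPN14 had their highest mean in CEN.PK113-7D at 15 °C and their lowest in EC1118 at 30 °C, as did RPN13.

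**Figure D4:**
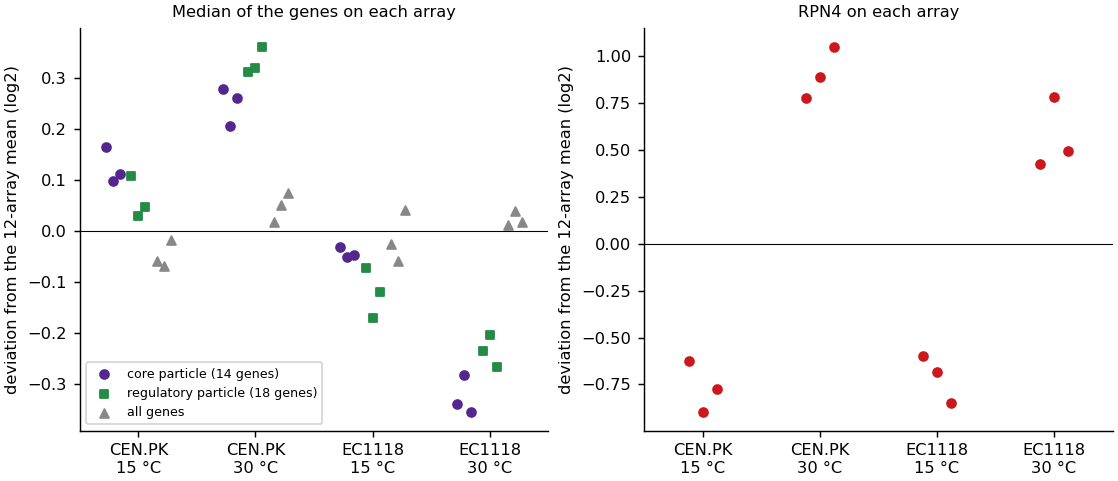
Left: for each array, the median deviation of the core particle genes, the regulatory particle genes and all genes from their own 12-array means (log2). Right: the same deviation for RPN4. Both particles are highest in CEN.PK113-7D at 30 °C and lowest in EC1118 at 30 °C, whereas RPN4 is high at 30 °C in both strains.

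The core and regulatory particles were compared as the deviation of each gene from its own mean over the 12 arrays, since levels of different probe sets cannot be set against each other. The core median deviations were 0.28, 0.21 and 0.26 in CEN.PK113-7D at 30 °C and 0.16, 0.10 and 0.11 at 15 °C. In EC1118 they were -0.03, -0.05 and -0.05 at 15 °C and -0.34, -0.28 and -0.36 at 30 °C. The regulatory particle medians were 0.31, 0.32 and 0.36, then 0.11, 0.03 and 0.05, then -0.07, -0.17 and -0.12, and then -0.24, -0.20 and -0.27 in the same order of groups. Each particle therefore separated all 4 groups with no overlap between arrays as deposited. Taken relative to the median deviation of all genes on each array, the core did not separate the temperatures in CEN.PK113-7D. It read 0.22, 0.17 and 0.13 at 15 °C and 0.26, 0.16 and 0.19 at 30 °C. The regulatory particle still separated the 4 groups on that scale.

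The particles shifted slightly against each other with temperature. The core median minus the regulatory particle median lay between 0.04 and 0.12 on each of the 6 arrays at 15 °C and between -0.11 and -0.03 on each of the 6 arrays at 30 °C. The core exceeded the regulatory particle in median log2 change from 30 °C to 15 °C by 0.13 in CEN.PK113-7D and by 0.06 in EC1118. In CEN.PK113-7D the median change of the regulatory particle in the cold lay below that of all genes, and the core median followed it. In EC1118 the core median lay above the regulatory particle median. These differences were not tested. The EC1118 value was 0.09 without replicate 1 at 15 °C and 0.11 without replicate 3 at 30 °C. Which strain shifted more depended on the measure. On single arrays core minus regulatory particle was 0.06, 0.07 and 0.06 at 15 °C in CEN.PK113-7D, and -0.03, -0.11 and -0.10 at 30 °C. In EC1118 it was 0.04, 0.12 and 0.07, and -0.10, -0.08 and -0.09, a shift no smaller than in CEN.PK113-7D. For the difference between the strains' temperature effects, the core median was 0.44 and the regulatory particle median 0.38. Between strains the core differed from the regulatory particle by 0.04 at 15 °C and by -0.06 at 30 °C. The 15 °C value was 0.02 without CEN.PK113-7D replicate 3 at 15 °C and -0.0039 without replicates 1 and 3, and the 30 °C value was -0.04 without EC1118 replicate 2 at 30 °C.

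RPN4, the transcription factor of proteasome genes, changed far more with temperature than the subunit genes did. It read 641, 530.5 and 577.4 at 15 °C and 1699, 1831 and 2052 at 30 °C in CEN.PK113-7D, a fall of 3.19-fold at 15 °C (adjusted p = 3.25e-06, log2 change -1.67 ± 0.12 SE). In EC1118 it read 652.4, 615.8 and 548.9 against 1331, 1701 and 1396 (2.43-fold lower, adjusted p = 1.69e-05). The RPN4 values separated the temperatures in both strains, and the difference of 0.39 ± 0.16 between the strains' effects did not pass (adjusted p = 0.145). The strains did not differ in RPN4 at 15 °C beyond the spread (0.06 ± 0.12). At 30 °C EC1118 was 1.26-fold lower with overlapping arrays (adjusted p = 0.0383), a call lost with 8 of 23 other settings, 5 of which left out an array. RPN4 thus fell in the cold in EC1118 while 16 of the subunit genes rose. Any link between the RPN4 transcript and the subunit genes was not tested.

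Regulators of RPN4 were counted in the same way. Of 6 (PDR1, PDR3, YAP1 and HSF1, which are activators of RPN4, and UBR2 and MUB1, which act in breaking down the Rpn4 protein) 5 fell in CEN.PK113-7D and 4 in EC1118 in the cold, where 36.6% and 30.0% of all genes fell. None rose (limma, also 0 at an unadjusted p under 0.05, where 23.8% of all genes rose in CEN.PK113-7D and 27.0% in EC1118). With centred arrays 4 fell in CEN.PK113-7D and 3 in EC1118, where 28.9% and 25.6% of all genes fell. PDR3 alone rose with centred arrays, in EC1118, where 29.8% of all genes rose. PDR1, a regulator of drug resistance genes, averaged 514 ± 67.8 (SD, n = 3) at 15 °C and 871 ± 29.4 at 30 °C in CEN.PK113-7D (adjusted p = 0.000448). HSF1, the heat shock factor, fell with log2 changes of -0.60 in CEN.PK113-7D and -0.56 in EC1118. UBR2, the ubiquitin ligase for Rpn4, was 2.07-fold lower in EC1118 in the cold (-1.05, adjusted p = 6.96e-05) and measured -0.19 in CEN.PK113-7D. The strains' effects differed for UBR2 (-0.86, adjusted p = 0.00993) and for PDR3 (0.71, adjusted p = 0.00542).

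Genes for assembly factors and activators had calls in both directions. Of 13 measured, RPN14 included, 4 rose and 4 fell in the cold in CEN.PK113-7D, where 21.8% of all genes rose and 36.6% fell. In EC1118 1 rose and 5 fell, where 24.2% and 30.0% of all genes did. With centred arrays there were 4 risers and 2 fallers in CEN.PK113-7D, where 28.9% of all genes went each way, and 2 risers and 3 fallers in EC1118, where 29.8% rose and 25.6% fell. The test of the difference between strains called 0 (limma), where 8.68% of all genes were more positive in EC1118 and 4.37% more negative. At an unadjusted limma p under 0.05, 2 were more negative in EC1118 and 0 more positive, against 10.6% and 17.6% of all genes. NAS2, a chaperone of the base, was 1.64-fold lower in CEN.PK113-7D and 1.57-fold lower in EC1118. ECM29, which tethers the core to the regulatory particle, was 1.42-fold and 1.33-fold lower. ADD66, a chaperone of core assembly, was 1.26-fold and 1.25-fold higher. Between strains 6 of the 13 were lower in EC1118 at 30 °C, also with centred arrays, where 20.4% and 21.0% of all genes were. Among them were ECM29 (1.59-fold) and SEM1, a lid subunit whose symbol falls outside the naming rule (1.43-fold, from 1523 ± 84.9 in CEN.PK113-7D to 1066 ± 55.9 in EC1118). At 15 °C 7 were lower, where 14.1% of all genes were, ECM29 by 1.48-fold.

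Of 14 genes that supply and handle ubiquitin, 11 fell and 0 rose in CEN.PK113-7D in the cold (limma). Of all genes 36.6% fell and 21.8% rose. At an unadjusted limma p under 0.05 also 0 were higher, against 23.8% of all genes. In EC1118 8 fell and 1 rose, where 30.0% of all genes fell and 24.2% rose. With centred arrays 8 fell and 1 rose in CEN.PK113-7D, the riser being UBC5, where 28.9% of all genes went each way. In EC1118 6 fell and 1 rose with centred arrays, where 25.6% of all genes fell and 29.8% rose. The polyubiquitin gene UBI4 read 1255, 1219 and 1359 at 15 °C and 2905, 3111 and 3231 at 30 °C in CEN.PK113-7D (2.41-fold lower, adjusted p = 7.5e-07). It averaged 1730 ± 70.6 and 2831 ± 119 in EC1118 (1.64-fold lower). UBI4 thus moved with temperature as RPN4 did, and its effect differed between the strains by 0.56 ± 0.09 (adjusted p = 0.00464). UFD4, a ubiquitin ligase, was 2.04-fold lower in CEN.PK113-7D and 2.16-fold lower in EC1118, and DOA4, a deubiquitinase of endosomes, 2.06-fold lower in EC1118. UBP6, a deubiquitinase that sits on the proteasome, was the gene that rose in EC1118: its log2 change was -0.23 in CEN.PK113-7D and 0.23 in EC1118, with adjusted p = 0.00993 for the difference. Both changes were called as deposited, and the one in CEN.PK113-7D was not with centred arrays. DSK2, a ubiquitin shuttle, and DOA1, a Cdc48 cofactor, were 1.72-fold and 1.45-fold lower in EC1118 at 30 °C. At 30 °C 5 of the 14 genes were lower in EC1118 and 2 were higher, UFD4 and DOA4, where 20.4% of all genes were lower and 21.0% higher. At 15 °C 3 were higher, UBI4 (0.44), UFD4 (0.41) and UBR1 (0.31), and 3 were lower, DSK2, DDI1 and UBC5. Of all genes 19.0% were higher in EC1118 at 15 °C and 14.1% lower.

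The Cdc48 ATPase pulls ubiquitinated proteins out of complexes before degradation. Of 7 genes of its complex, 4 fell at 15 °C in CEN.PK113-7D, CDC48 1.39-fold and its cofactor SHP1 with a log2 change of -0.42, where 36.6% of all genes fell. With centred arrays 2 fell, where 28.9% of all genes did. In EC1118 2 rose and 2 fell, where 24.2% of all genes rose and 30.0% fell. With centred arrays 2 rose and 1 fell there, where 29.8% and 25.6% of all genes did. The adaptor NPL4 fell in EC1118 with either scaling (-0.42 as deposited). CUZ1, which binds Cdc48 and the proteasome, had the widest range: it averaged 892 ± 51.1 at 15 °C and 789 ± 171 at 30 °C in CEN.PK113-7D, and 323 ± 5.16 and 131 ± 11.5 in EC1118. It rose by 1.31 in EC1118 in the cold (adjusted p = 4.66e-05), measured 0.20 in CEN.PK113-7D, and was lower in EC1118 at both temperatures (-1.46 and -2.57). UFD1, the partner of NPL4, was also lower in EC1118 at both temperatures, with log2 differences of -0.32 at 15 °C and -0.64 at 30 °C.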

How the data were processed

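RNA from 12 cultures was hybridised to Affymetrix yeast arrays, per the labels' protocols. The deposited table holds 1 linear intensity per probe set and array for 5900 probe sets, with a lowest value of 10. How the authors summarised and normalized the probes is not stated by the labels. The fit used log2 of the deposited intensities. Genes were assigned from the platform annotation and RefSeq's table of assembly R64, with 5498 named by 1 gene, 0 by several and 402 unnamed, and 12 symbols updated. The brightest probe set stood for a gene, which left 5449 genes.

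The model was limma 3.58.1's lmFit and eBayes under R 4.3.3 (1 coefficient per group, 8 residual degrees of freedom). The 5 comparisons were temperature in each strain, strain at each temperature and their interaction. P-values are two-sided with Benjamini-Hochberg adjustment over all genes, and the threshold is 0.05. Called means past it. The fit was tested on simulated data. Folds are 2 to the power of the difference between mean log2 values, that is ratios of geometric means. Values are given for catalytic subunits, RPN11, RPN10, RPT1, RPN4, UBI4, for the 3 highest and 3 lowest called members of a comparison, and for the 2 most changed called genes of each list in a comparison. Members, lists and rules were chosen with earlier results of these data known. Same-numbered arrays deviated together, with r above 0.1 in every pair, between strains at 15 °C alone (0.478, 0.321 and 0.393). This pairing was read from the values, since the labels give none. A planned search for a promoter motif was not run, since promoter sequences were not used here. ADC17 was listed but had no probe set under that name.

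Alternatives were a replicate block, the compared groups alone, 2 other scalings, removal of genes whose mean fell among those of the dimmest 25% of probe sets, an added pseudocount of 50, a trended and robust eBayes, averaging a gene's probe sets, every probe set as a feature, each array left out, and both arrays least like their group left out. Leaving out the array least like its group in each strain was added after seeing the data.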

Additional observations from a re-analysis of the deposited data

Results flagged for a closer look

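The temperature effect, 15 °C minus 30 °C on the log2 scale, was tested for a difference between the strains, and 20 proteasome genes and UBI4 passed (limma, adjusted p under 0.05). The values are the effect in EC1118 minus the effect in CEN.PK113-7D. In the alpha ring PRE10 differed by 0.507, PRE9 by 0.492, SCL1 by 0.477, PRE5 by 0.463 and PRE8 by 0.458. In the beta ring PUP3 differed by 0.477, PRE1 by 0.471, PRE3 by 0.424, PRE7 by 0.378 and PUP1 by 0.311. In the base RPN10 differed by 0.511, RPN1 by 0.406, RPT1 by 0.358 and RPT5 by 0.323. In the lid RPN9 differed by 0.477, RPN5 by 0.459, RPN12 by 0.415, RPN7 by 0.398, RPN6 by 0.389 and RPN3 by 0.379. UBI4 differed by 0.560, with a fall in the cold in both strains. The calls of PUP1, RPN1, RPT1, RPT5, RPN5, RPN12 and RPN3 were lost when any of 5 to 9 arrays was left out. The scale of the arrays moved with temperature in both strains, and its part in these differences was not tested beyond the scalings reported here.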

How the results depend on the processing

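Counts are of 33 genes, and other values are log2. Of the alternatives, the share of all genes called was counted for centred arrays alone. In CEN.PK113-7D the count that rose in the cold moved from 1 to 5 with quantile normalization and to 0 without dim genes (the filter removed RPN14) or without the 2 arrays least like their group (CEN.PK113-7D replicates 1 and 3 at 15 °C). The count that fell moved from 18 to 9 with centred arrays and 5 with quantile normalization, where PRE8 turned from -0.16 to 0.019 with no call. In EC1118, RPN8 was called lower with a pseudocount of 50 or with every probe set as a feature, a count of 1 in each. At 15 °C the count lower in EC1118 moved from 15 to 9 in the fit of the compared groups alone. There the core minus regulatory particle value moved from 0.041 to 0.074 with quantile normalization and -0.0039 without the 2 arrays. The interaction count moved from 20 to 9 with quantile normalization, and its core minus regulatory particle value from 0.057 to 0.023 without the 2 arrays. The cause was not tested in any of these cases.

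With each array left out, 13 to 18 genes fell and 0 to 1 rose in CEN.PK113-7D in the cold, and 12 to 17 rose and 0 to 1 fell in EC1118. The count lower in EC1118 was 10 to 15 at 15 °C and 31 to 33 at 30 °C, with 0 higher at either temperature, and 14 to 19 interaction calls were positive and 0 negative. The core minus regulatory particle value was 0.093 to 0.143 for temperature in CEN.PK113-7D, 0.0605 to 0.108 in EC1118, 0.024 to 0.048 for strain at 15 °C (lowest without CEN.PK113-7D replicate 3 at 15 °C), -0.081 to -0.035 for strain at 30 °C (nearest 0 without EC1118 replicate 2 at 30 °C) and 0.038 to 0.086 for the interaction (lowest without CEN.PK113-7D replicate 1 at 30 °C). At 30 °C the count lower in EC1118 stayed between 31 and 33 in every alternative run. With the replicate block 17 fell and 1 rose in CEN.PK113-7D, 17 rose in EC1118, 14 and 33 were lower in EC1118 at 15 °C and 30 °C, and 19 interaction calls were made. For single genes called in either fit, 2268 of the alternatives kept the call and direction, 237 lost it, 58 gained it and 1 reversed. The interaction uses all 4 groups, so no fit of the compared groups alone applied to it.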
